A study of Mus musculus with 36 samples.

Results

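The 36 genes described here encode the enzymes, transporters and regulators that carry glucose into cells and through glycolysis, with the steps that lead pyruvate to lactate or to the mitochondrion and the pentose phosphate branch. They were chosen by gene name, as genes of these pathways, from a table of 56748 genes, with earlier results of these data known. They comprise 2 glucose transporters, 3 genes of the hexokinase and phosphoglucose isomerase steps, 5 phosphofructokinases and regulators of that step, 6 genes from aldolase to phosphoglycerate mutase, 4 enolase and pyruvate kinase genes, 4 lactate dehydrogenases and lactate transporters, 5 genes of pyruvate dehydrogenase and its kinases, 4 pentose phosphate enzymes, and Hif1a with 2 of its known targets. All 36 passed the filter on low counts in every comparison.

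RNA-seq had been made from mouse CD4 T cells to ask how the heterochromatin proteins HP1α and HP1γ shape the response of conventional T cells (Tconv) to regulatory T cells (Treg). In the HP1a line, knock-out (KO) cells came from Hp1a-/- mice, obtained by crossing a floxed allele with CMV-cre mice so that the deletion is in the whole animal, and wild-type (WT) cells from Hp1a+/+ littermates. In the HP1g line, KO cells came from Hp1g flox/flox mice carrying Cd4-cre, which deletes in T cells, and WT cells from flox/flox littermates without Cre. Mice were of mixed 129/Sv and C57BL/6 background, sex-matched and 6 to 12 weeks old, and the study states that males were used for its sequencing. Naive libraries were made from splenic naive CD4 T cells isolated by negative selection. Grafted Tconv started as such cells, were transferred with C57BL/6J and B6D2F1 bone marrow depleted of T and NK cells into lethally irradiated C57BL/6J or congenic hosts, and were sorted 3 weeks later as donor-specific Vβ6+ cells. Tconv with Treg came from hosts that had also received WT Treg expanded ex vivo. There were 12 groups, 1 for each combination of line, genotype and condition, with 3 libraries each. The third library of Tconv with Treg from HP1g KO mice was set aside, as by the authors. Whether replicates were separate animals or pools is not stated in the sources used here, so p-values measure the spread between these libraries. The naive libraries and the grafted libraries carry separate set names in the labels, as do the 2 lines, so library set and condition cannot be told apart in comparisons of Tconv with naive cells.

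The 35 libraries held 37029519 to 63042245 counts each. Over the 3 conditions together, the RNA of the targeted genes had lower ranges in KO than in WT libraries, which overlapped at their ends. For the proteins, the paper reports no HP1α in naive KO cells of the HP1a line and nearly full loss of HP1γ in those of the HP1g line. Cbx5, which encodes HP1α, stood at 9.25 to 19.7 CPM (a library's counts scaled to a fixed total and normalised between libraries) in HP1a KO against 18.6 to 61.9 CPM in WT libraries, and Cbx3, which encodes HP1γ, stood at 59.4 to 80.8 CPM in HP1g KO against 79.5 to 200.1 CPM in WT libraries. The summed level of 8 CD4 T cell markers was 5519 to 9072 CPM in all libraries, 6 naive cell markers summed to 6767 to 8422 CPM in naive and 1224 to 2723 CPM in grafted libraries, and 7 markers of activated or Th1 cells to 63.8 to 93.0 CPM in naive and 1777 to 15446 CPM in grafted libraries. Markers of other cells also moved with the naive and grafted conditions. The 8 B cell markers summed to 551 to 903 CPM in naive and 95.4 to 459 CPM in grafted libraries. Ighm made up most of the naive sum, with group means of 603 to 720 CPM in naive and 111 to 309 CPM in grafted cells. Cd79a and Cd79b averaged at most 2.87 and 2.91 CPM in any group. The 10 myeloid markers summed to 5.02 to 11.9 CPM in naive and 5.63 to 672 CPM in grafted libraries, and the 4 CD8 T or NK cell markers to at most 30.4 CPM in any library. Their part in the differences between Tconv and naive cells was not tested. Several libraries stood apart. Replicate 3 of HP1a WT Tconv with Treg had the highest Th1 marker sum, 15446 CPM, and its group held the lowest correlation between 2 replicates, 0.926. Replicate 2 of HP1g WT naive was the extreme of its group for many abundant members, such as Eno1 with 1768 against 1158 and 1177 CPM. Replicate 1 of each of the 4 grafted HP1g groups carried 3423 to 6287 CPM of erythroid markers. These markers were at 2.04 to 780.1 CPM in the other grafted libraries. In grafted HP1a cells they were higher in every KO library than in every WT library of the same condition.

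Glycolysis splits glucose into pyruvate in the cytosol and yields ATP without oxygen. Resting T cells burn pyruvate in mitochondria, while activated T cells are known for taking up more glucose and exporting lactate. Pyruvate dehydrogenase kinases close the mitochondrial route by phosphorylating pyruvate dehydrogenase, and the pentose phosphate branch supplies NADPH and ribose. The hypoxia-inducible factor encoded in part by Hif1a binds ACGTG elements near many of these genes, MYC-type factors bind the overlapping CACGTG, and prolyl hydroxylases such as the product of Egln3 mark HIF-1α for degradation.

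The 250 bases before the start sites of members whose levels changed most carry this 5-letter element in some cases and not in others. In the RefSeq promoters of GRCm38.p6, an earlier build than the GRCm39 of the counts, 35 of the 36 members had an entry, and Slc2a3 is named only. ACGTG or its complement CACGT occurred before 19 of the 50 member start sites (38.0%) and before 16.6% of all 32851 start sites in that set. These shares were not tested or matched for the content of G and C, and overlapping windows of the same gene were counted separately. Hk2, Slc16a3 and Egln3, which rose, and Bnip3, which fell, are shown as examples, each 250 bases long, 5′ to 3′ on the strand of the gene, with the matches in capitals. The Hk2 window is at chr6:82774455-82774704, minus strand, that of Slc16a3 at chr11:120948817-120949066, plus strand, that of Egln3 at chr12:54203875-54204124, minus strand and that of Bnip3 at chr7:138909507-138909756, minus strand.
Hk2: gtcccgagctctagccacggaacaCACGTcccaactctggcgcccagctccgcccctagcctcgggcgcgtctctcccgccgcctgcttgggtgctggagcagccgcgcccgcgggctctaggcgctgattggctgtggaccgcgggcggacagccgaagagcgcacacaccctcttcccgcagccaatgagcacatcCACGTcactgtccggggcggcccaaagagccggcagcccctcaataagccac
Slc16a3: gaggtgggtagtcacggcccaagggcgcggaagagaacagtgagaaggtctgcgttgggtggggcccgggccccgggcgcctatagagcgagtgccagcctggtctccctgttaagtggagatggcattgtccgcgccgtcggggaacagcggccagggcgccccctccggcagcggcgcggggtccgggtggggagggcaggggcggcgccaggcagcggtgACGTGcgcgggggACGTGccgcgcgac
Egln3: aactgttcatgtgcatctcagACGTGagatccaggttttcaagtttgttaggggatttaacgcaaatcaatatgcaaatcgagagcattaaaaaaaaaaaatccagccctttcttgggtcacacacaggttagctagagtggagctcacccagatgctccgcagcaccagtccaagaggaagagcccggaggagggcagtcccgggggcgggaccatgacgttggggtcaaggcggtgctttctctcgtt
Bnip3: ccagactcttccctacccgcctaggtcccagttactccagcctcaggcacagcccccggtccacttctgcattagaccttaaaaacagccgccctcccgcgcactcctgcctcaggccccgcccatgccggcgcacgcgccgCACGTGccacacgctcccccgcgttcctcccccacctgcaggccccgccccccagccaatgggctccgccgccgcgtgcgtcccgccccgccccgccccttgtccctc
Hk2 and Slc16a3 hold 2 matches each and Egln3 holds 1. In Bnip3 both strands match within a single CACGTG. The same held at 1 of the start sites of Pdk2, which fell, and the windows of Pfkp, Tpi1, Pdk1, Ldhb and Pfkfb4 held no match. A match is a description of the letters in these windows.

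Naive T cells already contained most of the pathway. Per kilobase of transcript, which allows genes to be compared, the median over the 12 naive libraries was highest for Ldha (lactate dehydrogenase A, 539.6 CPM per kilobase), Eno1 (enolase 1, 502), Gapdh (425), Pkm (pyruvate kinase, 364) and Aldoa (aldolase A, 309.8). It was lowest for Hk2 (hexokinase 2, 0.0273 CPM per kilobase), Eno2 (neuronal enolase, 0.212), the lactate exporter gene Slc16a3 (0.382) and Egln3 (0.792). In Tconv the first 4 places were held by the same 4 genes, Ldha, Gapdh, Eno1 and Pkm, at 774, 733, 629 and 423 CPM per kilobase, and the ranges of Ldha, Gapdh and Eno1 over libraries overlapped. Counts per gene do not separate the Pkm transcripts that differ by 1 exon.

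**Figure D1:**
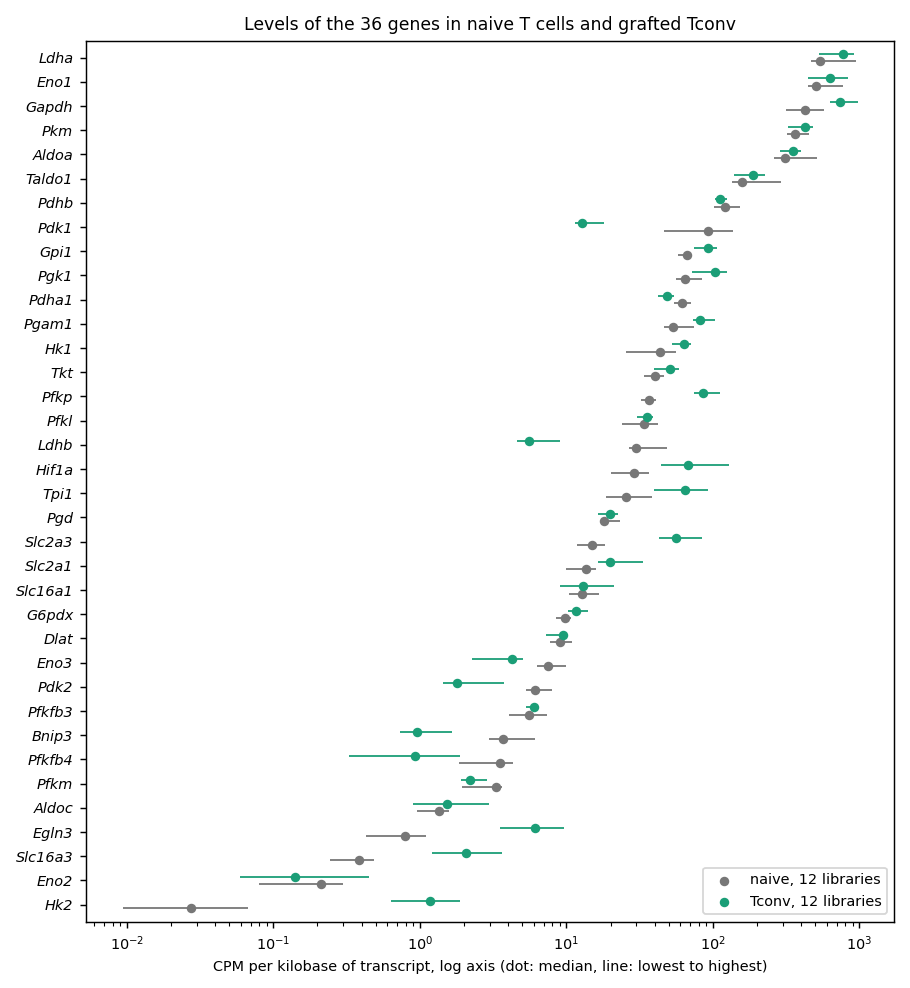
Levels of the 36 genes in CPM per kilobase of transcript on a log axis, in naive T cells (grey) and grafted Tconv (green), each dot the median and each line the lowest to highest of 12 libraries, ordered by the naive median. Hk2, at the bottom, lies between 0.00938 and 0.0667 in naive cells and between 0.633 and 1.88 in Tconv.

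Grafted Tconv differed from naive cells in both directions, and 6 members were called higher and 5 lower in both genotypes of both lines. Called here means an adjusted p below 0.05 (edgeR's quasi-likelihood test, Benjamini-Hochberg over all genes tested) together with a log2 fold change beyond 1 in either direction. In HP1a WT cells 8 members were called higher and 5 lower, against a background of 12.9% and 10.2% of 16027 genes. In HP1a KO cells 6 were called higher and 5 lower (background 12.4% and 7.24%), in HP1g WT cells 8 and 6 (15.0% and 8.55%) and in HP1g KO cells 7 and 6 (15.7% and 7.30%). Each of these 4 comparisons has its own libraries. Slc2a3, Hk2, Pfkp, Tpi1, Slc16a3 and Egln3 were called higher in all 4, and Pfkfb4, Ldhb, Pdk1, Pdk2 and Bnip3 lower in all 4. Of the 14941 genes tested in all 4 comparisons, 9.09% were called higher in each and 3.74% lower in each. The median log2 fold change of the 36 members was 0.41, 0.31, 0.21 and 0.19 in HP1a WT, HP1a KO, HP1g WT and HP1g KO, beside -0.04, -0.01, -0.03 and 0.02 over all genes tested. In a bulk library a change in the level per cell and a change in the share of cells that express a gene cannot be told apart.

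**Figure D2:**
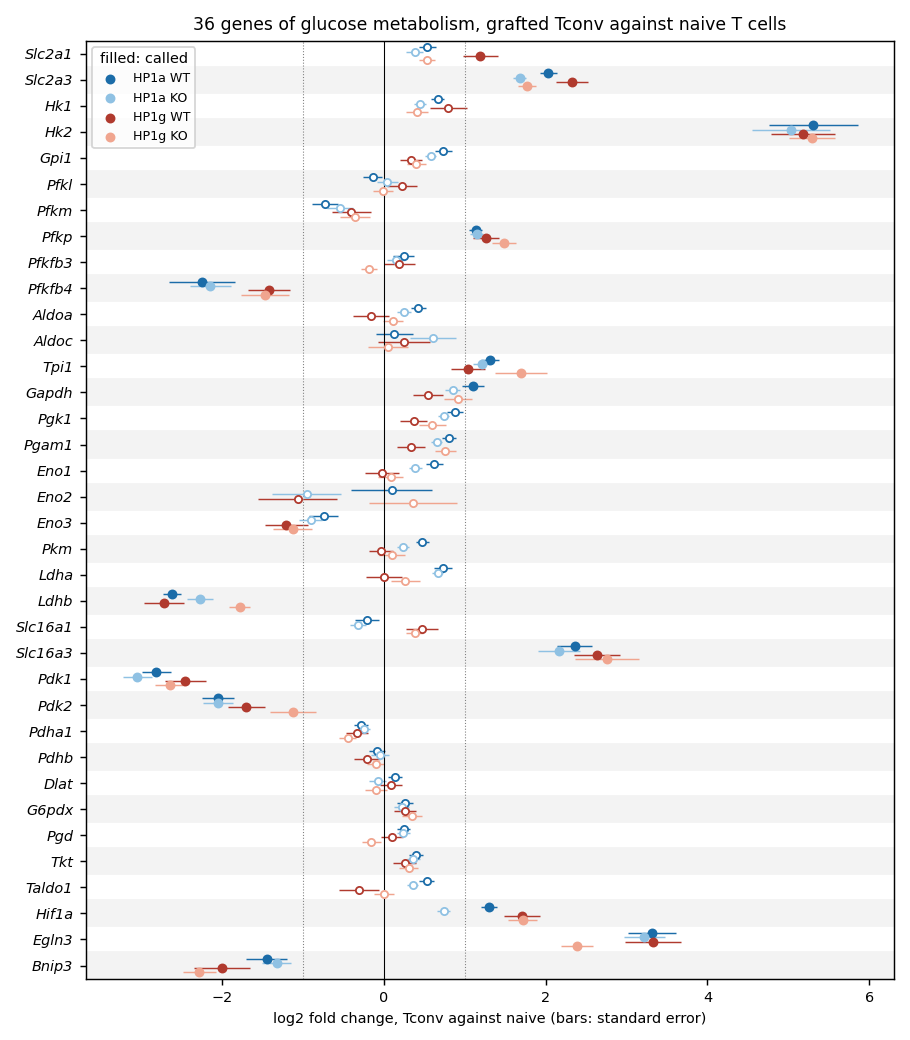
Log2 fold change of each member in grafted Tconv against naive T cells (x axis) by gene in pathway order (y axis), in 4 comparisons of 3 against 3 libraries, with bars for the standard error, dotted lines at -1 and 1 and filled dots for called genes. The dots of Hk2 lie between 5.04 and 5.31 and those of Pdk1 between -3.05 and -2.45.

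Glucose entry and its first phosphorylation changed at Slc2a3 and Hk2. Slc2a3 encodes GLUT3, a high-affinity glucose transporter, at GRCm39 chromosome 6, 122704768 to 122778599. It stood at 50.7, 59.7 and 58 CPM in HP1a WT naive libraries and 232, 210 and 243 CPM in HP1a WT Tconv, and at 52.5, 60.1 and 57.5 against 178, 169.9 and 189.5 CPM in HP1a KO cells. In the HP1g line it stood at 68.8, 46.7 and 62.1 against 266, 333 and 295 CPM in WT and 62, 72.1 and 57.2 against 195, 225 and 220.5 CPM in KO cells. No Tconv library overlapped a naive one, and the log2 fold changes in HP1a WT, HP1a KO, HP1g WT and HP1g KO were 2.04, 1.68, 2.33 and 1.77 (standard errors 0.08 to 0.20; adjusted p 2.15e-06 to 0.000113). Slc2a1, which encodes the widespread transporter GLUT1, averaged 59.98 and 95.2 CPM over the 12 naive and 12 Tconv libraries. It was called in HP1g WT alone (log2 fold change 1.19, SE 0.21, adjusted p = 0.00402), with 0.38 to 1.19 over the 4 comparisons. The 2 transporters had similar means in naive cells, 58.9 and 59.98 CPM, and 229.8 and 95.2 CPM in Tconv.

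Hk2 encodes the inducible, mitochondria-binding hexokinase, and Hk1 the constitutive one. Hk2 stood at 0.481, 0.0731 and 0.193 CPM in HP1a WT naive libraries and 12, 8.71 and 8.78 CPM in Tconv, and at 0.363, 0.163 and 0.13 against 9.39, 4.94 and 7.06 CPM in HP1a KO cells. Values were 0.52, 0.188 and 0.315 against 11.9, 14.7 and 10.5 CPM in WT and 0.286, 0.1997 and 0.226 against 8.8, 11 and 8.2 CPM in KO cells of the HP1g line. Every Tconv library lay above every naive one, at log2 fold changes of 5.31, 5.04, 5.18 and 5.29 (SE 0.29 to 0.55; adjusted p 3.59e-06 to 0.000234), the largest of any member. Naive counts of Hk2 were low, and in HP1a WT the value was 6.14 without naive replicate 1. Hk1 remained the more abundant form, with means of 183 and 269.5 CPM in naive cells and Tconv and log2 fold changes of 0.41 to 0.80, all past the adjusted p but none past the fold threshold. Gpi1, which encodes phosphoglucose isomerase, averaged 191 and 270.5 CPM with log2 fold changes of 0.33 to 0.74, past the adjusted p in HP1a WT, HP1a KO and HP1g KO.

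At phosphofructokinase, the committing step of glycolysis, the platelet form was the one called higher. Pfkp went from means of 157 ± 1.34, 161 ± 6.95, 161 ± 19.7 and 156 ± 1.21 CPM (SD, n = 3 each) in naive HP1a WT, HP1a KO, HP1g WT and HP1g KO libraries to 343 ± 9.53, 352 ± 26.7, 386 ± 24.1 and 429 ± 81.1 CPM in Tconv. Its log2 fold changes were 1.14, 1.15, 1.26 and 1.48 (adjusted p 1.21e-05 to 0.000826), and the groups did not overlap. Pfkl, the liver form, averaged 140.5 and 142 CPM in naive cells and Tconv, with log2 fold changes of -0.14 to 0.22, and none passed the test. Pfkm, the muscle form, averaged 12.7 and 8.86 CPM and passed the adjusted p only in the 2 HP1a comparisons, at -0.73 in WT and -0.54 in KO. Pfkm lies opposite Senp1, which had more reads, and the library kit does not mark strand, so Pfkm counts are uncertain.

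Pfkfb3 and Pfkfb4 encode bifunctional enzymes that set the level of fructose 2,6-bisphosphate, the main activator of phosphofructokinase. Pfkfb4 stood at 11.2, 15.1 and 13.8 CPM in HP1a WT naive libraries and 4.08, 3.18 and 1.16 CPM in Tconv, and at 11, 6.5 and 9.44 against 3.62, 3.32 and 3.16 CPM in HP1g WT cells. It fell by more in the HP1a comparisons than in the HP1g ones on the log2 scale, -2.24 in WT and -2.15 in KO beside -1.42 and -1.46 (adjusted p 0.000582 to 0.00444), a difference that was not tested. Pfkfb3 averaged 31.9 and 33.6 CPM in naive cells and Tconv and passed in no comparison.

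The enzymes from aldolase to pyruvate kinase changed by less, apart from Tpi1. Tpi1, triosephosphate isomerase, had 29.8 to 61.5 CPM in the 12 naive libraries (median 40.8) and 63.2 to 149 CPM in Tconv (median 104), with log2 fold changes of 1.31, 1.21, 1.04 and 1.69 (adjusted p 3.6e-05 to 0.00756). In HP1g WT its fold was just past the threshold and dropped to 0.92 to 0.95 without Tconv replicate 3 or without naive replicate 1 or 3. Gapdh, glyceraldehyde-3-phosphate dehydrogenase, averaged 598 and 1069 CPM and was called in HP1a WT (log2 fold change 1.10, adjusted p = 0.000339), with 0.85, 0.55 and 0.92 in the other comparisons. Pgk1 (phosphoglycerate kinase) and Pgam1 (phosphoglycerate mutase) averaged 119 and 185 CPM and 97.8 and 151 CPM in naive cells and Tconv, and their log2 fold changes lay between 0.34 and 0.88. Aldoa averaged 482 and 532 CPM, and its minor relative Aldoc 3.59 and 4.34 CPM. Neither was called in any of the 4 comparisons. Eno1 averaged 1200 and 1438 CPM and Pkm 911 and 1033 CPM, with log2 fold changes of -0.02 to 0.62 and -0.03 to 0.48. Eno3, muscle enolase, averaged 13.4 and 6.75 CPM and was called lower in HP1g WT (-1.20) and HP1g KO (-1.12), and was past the adjusted p but not the fold in HP1a WT (-0.74) and HP1a KO (-0.91). Both HP1g calls were lost without Tconv replicate 2 of their own genotype, in WT by the adjusted p (0.0518 by edgeR, at -1.03) and in KO by the fold (-0.96). Eno2 averaged 0.569 and 0.462 CPM and passed in none. Salmon had assigned at most 1.82% of the reads of any of Eno1, Pgk1, Pgam1, Ldha, Ldhb, Gapdh, Aldoa and G6pdx and 1 copy to that copy, so the listed near-identical genes took few reads.

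With no fold threshold, 20 members were higher and 8 lower in HP1a WT (background 24.3% and 21.4%), 20 and 9 in HP1a KO (22.9% and 17.8%), 9 and 6 in HP1g WT (18.3% and 13.2%) and 14 and 7 in HP1g KO (23.4% and 17.7%). Eno1, Pkm, Ldha, Aldoa, Tkt and Taldo1 passed in both HP1a comparisons and in neither HP1g comparison. Without replicate 2 of HP1g WT naive, the library that stood apart, 16 members were higher and 8 lower in HP1g WT. Whether the change differed between the lines was not tested, and line and library set cannot be told apart.

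Among the lactate genes, Slc16a3 rose and Ldhb fell. Slc16a3 encodes MCT4, an exporter of lactate. It stood at 2.2, 1.74 and 2.18 CPM in HP1a WT naive libraries and 9.03, 10.4 and 11.8 CPM in Tconv, and at 1.14, 1.5 and 1.6 against 7.03, 8.36 and 11 CPM in HP1g WT cells. Its log2 fold changes were 2.36, 2.16, 2.63 and 2.76 (SE 0.22 to 0.39; adjusted p 6.7e-05 to 0.000825), with no overlap. Slc16a3 overlaps the opposite strand of Csnk1d, which had about 10443 counts per library beside 319 for Slc16a3, so some of its reads may belong to that gene. Slc16a1, which encodes the bidirectional lactate carrier MCT1, averaged 58.6 and 62.4 CPM, with -0.32 to 0.47 on the log2 scale and no call. It passed the adjusted p as lower in HP1a KO and as higher in HP1g KO.

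Ldhb encodes the heart form of lactate dehydrogenase, which favours lactate oxidation. It stood at 48.4, 46.6 and 46.1 CPM in HP1a WT naive libraries and 7.92, 7.86 and 7.06 CPM in Tconv, and at 46.3, 41.4 and 45.4 against 7.06, 9.89 and 10.2 CPM in HP1a KO cells. HP1g line libraries stood at 44.1, 74.4 and 44.2 against 7.88, 8.27 and 8.6 CPM in WT and 45.6, 52.4 and 41 against 13.8, 11.9 and 13.9 CPM in KO cells. All Tconv libraries lay below all naive ones, at log2 fold changes of -2.62, -2.27, -2.72 and -1.78 (SE 0.11 to 0.25; adjusted p 1.14e-06 to 0.000152). Ldha, the muscle form, averaged 928 and 1221 CPM, with log2 fold changes of 0.01 to 0.73.

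At the entry to the mitochondrion the kinases fell and no subunit of the dehydrogenase was called. Pdk1, a kinase that inactivates pyruvate dehydrogenase, stood at 347, 564 and 503 CPM in HP1a WT naive libraries and 74.6, 64.1 and 61.8 CPM in Tconv, and at 482, 718 and 640 against 79.1, 59.8 and 80.7 CPM in HP1a KO cells. Libraries of the HP1g line stood at 404, 245 and 469 against 72.4, 69.4 and 62.6 CPM in WT and 405, 517 and 485 against 95.5, 62.5 and 63.9 CPM in KO cells. The groups did not overlap, and the log2 fold changes were -2.81, -3.05, -2.45 and -2.64 (SE 0.18 to 0.25; adjusted p 1.21e-05 to 0.00027). Pdk2, a second kinase, averaged 14.8 and 4.48 CPM and fell in all 4 comparisons (-2.04, -2.05, -1.70 and -1.13; adjusted p 8.34e-05 to 0.0126), though in HP1g KO its call was lost without Tconv replicate 3 or naive replicate 2. Pdha1, Pdhb and Dlat, which encode 3 subunits of the pyruvate dehydrogenase complex, averaged 177 and 140 CPM, 186 and 171 CPM and 61.8 and 61.9 CPM in naive cells and Tconv. None was called, and only Pdha1 passed the adjusted p in any comparison, with -0.45 to -0.24 on the log2 scale.

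No enzyme of the pentose phosphate branch was called. G6pdx (glucose-6-phosphate dehydrogenase), Pgd (phosphogluconate dehydrogenase), Tkt (transketolase) and Taldo1 (transaldolase) averaged 57.4 and 68.9, 65 and 69.3, 131 and 164 and 213 and 234 CPM in naive cells and Tconv, respectively. Their log2 fold changes lay between -0.30 and 0.53. Pgd, Tkt and Taldo1 passed the adjusted p in both HP1a comparisons.

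The genes of the hypoxia pathway did not move together. Hif1a had 137 to 251 CPM in naive libraries (mean 195) and 304 to 888 CPM in Tconv (mean 517), without overlap. It was called in HP1a WT, HP1g WT and HP1g KO (log2 fold changes 1.30, 1.71 and 1.72) and passed the adjusted p at 0.74 in HP1a KO. Egln3, whose product hydroxylates HIF-1α and whose transcript is itself a known HIF target, stood at 1.53, 1.43 and 1.62 CPM in HP1a WT naive libraries and 19.8, 16 and 9.48 CPM in Tconv, and at 2.3, 2.4 and 1.15 against 25.9, 16 and 17.3 CPM in HP1g WT cells. Its log2 fold changes were 3.31, 3.22, 3.33 and 2.38 (adjusted p 3.52e-05 to 0.000294). Bnip3, a mitophagy receptor and another known HIF target, stood at 11.2, 10.8 and 11.5 against 3.24, 5.65 and 3.28 CPM in HP1a WT and at 13.7, 22.1 and 13.7 against 6.09, 3.54 and 2.76 CPM in HP1g WT cells. It fell in all 4 comparisons (-1.45, -1.32, -2.00 and -2.28; adjusted p 5.24e-05 to 0.00373).

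**Figure D3:**
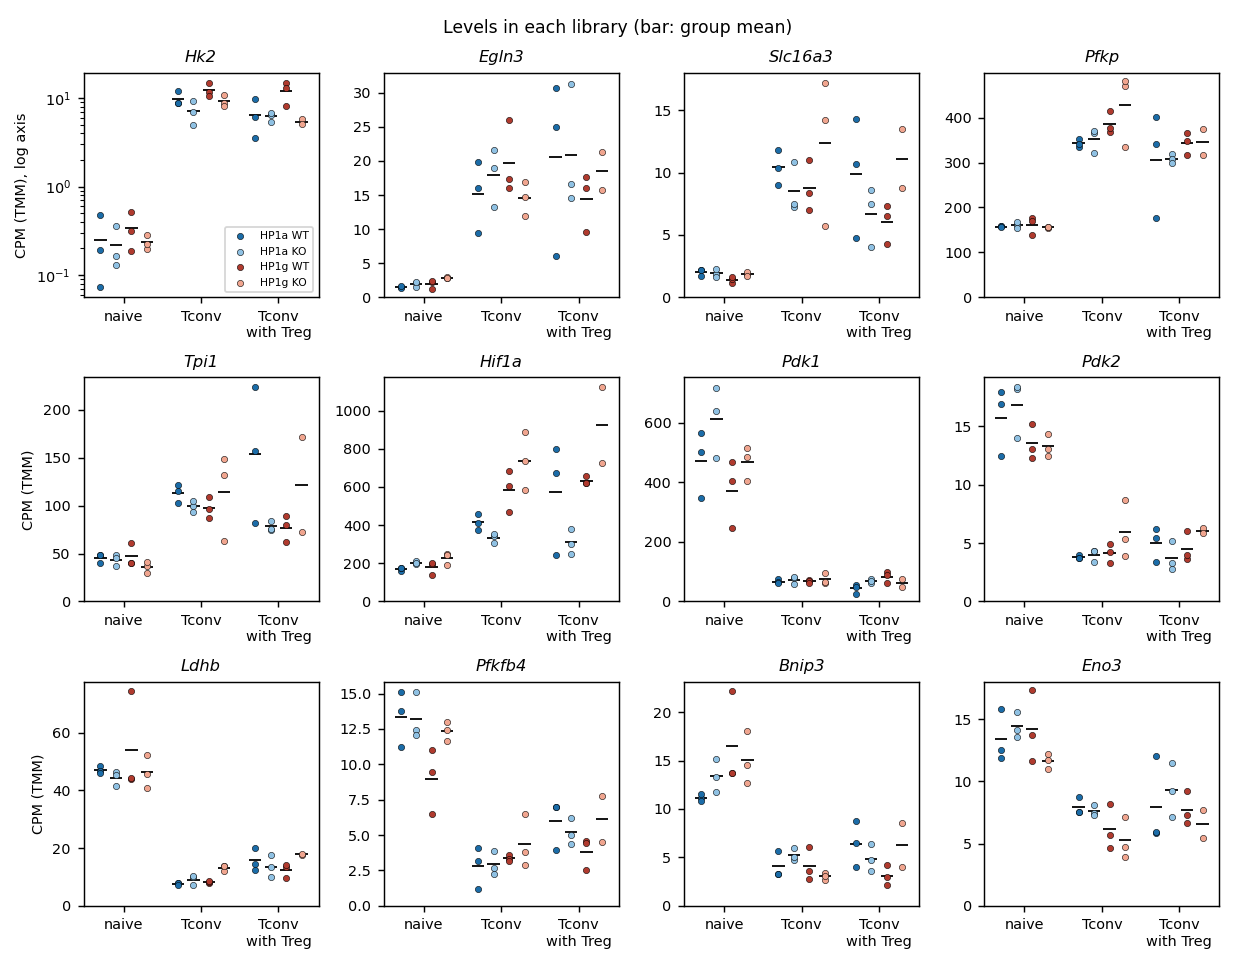
CPM of 12 members in each library (dots, coloured by line and genotype) in naive cells, Tconv and Tconv with Treg, with a bar for the group mean of 3 libraries (2 for HP1g KO Tconv with Treg); the Hk2 axis is logarithmic and the others start at 0. The first 6 panels hold genes that were higher in Tconv, such as Pfkp at 139 to 176 CPM in naive and 322 to 482 CPM in Tconv libraries, and the last 6 genes that were lower.

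Ratios between 2 genes of the same step within a library do not depend on scaling between libraries. Over WT and KO libraries of a line, 10 of the 11 ratios in the HP1a line and 9 of 11 in the HP1g line differed between Tconv and naive cells (exact two-sided permutation test within genotype, adjusted over 44 ratios). Ratios of other gene pairs were not examined, so these counts stand without a background. Many of the pairs hold a member that was called above. The largest was Hk2/Hk1, whose log2 ratio of counts had a median of -9.97 in naive and -4.96 in Tconv libraries of the HP1a line and of -9.28 and -4.69 in the HP1g line (mean differences 4.78 and 4.62, p = 0.005, the smallest the 400 divisions allow, adjusted p = 0.0129 by permutation). Ldhb/Ldha moved by -3.15 and -2.37, Slc16a3/Slc16a1 by 2.51 and 2.19, Pfkfb4/Pfkfb3 by -2.50 and -1.48, Slc2a3/Slc2a1 by 1.39 and 1.20, Pfkp/Pfkl by 1.18 and 1.24 and Eno3/Eno1 by -1.32 and -1.24, each without overlap in either line. Pdk2/Pdk1 moved by 0.88 and 1.07. Aldoc/Aldoa passed in neither line and Eno2/Eno1 in the HP1a line alone.

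**Figure D4:**
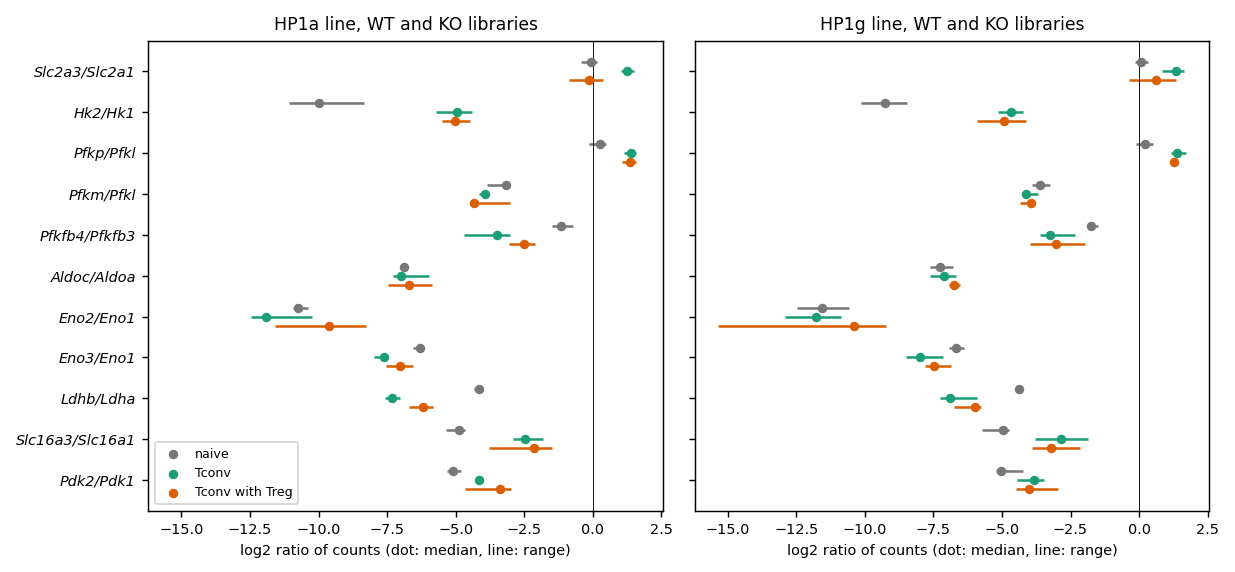
Log2 ratio of counts of 11 gene pairs (y axis) in naive cells (grey), Tconv (green) and Tconv with Treg (orange), dots for medians and lines for ranges over the WT and KO libraries of the HP1a line (left) and the HP1g line (right). Hk2/Hk1 lies near -10 in naive and near -5 in Tconv libraries, and Slc2a3/Slc2a1 in the HP1a line has a median of 1.26 in Tconv and -0.12 in Tconv with Treg.

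Among 75 other genes of the same pathways, 58, 60, 59 and 60 were tested in HP1a WT, HP1a KO, HP1g WT and HP1g KO. In that order, 5, 7, 8 and 6 were called higher (background 12.9%, 12.4%, 15.0% and 15.7%). Called lower were 5, 4, 3 and 8 (background 10.2%, 7.24%, 8.55% and 7.30%). Tktl1, a relative of transketolase, was called higher in all 4 (log2 fold changes 4.72, 5.55, 4.61 and 3.52), with means of 0.383 CPM in naive and 10.0 CPM in Tconv libraries of HP1a WT, as was Ero1a, an oxidoreductase gene of the endoplasmic reticulum and known HIF target (1.96, 1.59, 2.02 and 1.18). Epas1, which encodes HIF-2α, was called higher in HP1a WT (1.65), HP1a KO (1.92) and HP1g WT (2.41) but not in HP1g KO. The hypoxia genes outside the members went both ways. Of the 20 listed, 2, 4, 2 and 1 were called higher and 1, 1, 2 and 5 lower in HP1a WT, HP1a KO, HP1g WT and HP1g KO. In HP1g KO their log2 fold changes ran from -5.06 to 1.18. Txnip, whose product restrains glucose uptake, was called lower in HP1a WT (-1.44), HP1a KO (-1.18) and HP1g KO (-1.42), with means of 1010 CPM in naive and 370.0 CPM in Tconv libraries of HP1a WT. None of the pyruvate entry genes outside the members was called.

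With co-transferred Treg, few members were called in Tconv. In HP1a WT cells 1 member was called higher and 1 lower in Tconv with Treg (background 3.54% and 2.43% of 15627 genes). In HP1a KO cells 1 was called lower and none higher (0.260% and 0.180%). In HP1g WT and HP1g KO cells edgeR called none (background 0.0126% and 0.00%), and DESeq2 called 0 and 1 (background 0.332% and 1.61%). By edgeR, 3 and 5 members had an unadjusted p under 0.05, beside 1095 of 15903 and 1294 of 16991 genes. The member that was called lower in both HP1a genotypes was Slc2a3.

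Slc2a3 stood at 32.5, 32.9 and 25.7 CPM in HP1a WT Tconv with Treg, below all naive libraries of that group (50.7, 59.7 and 58 CPM) and all Tconv libraries without Treg (232, 210 and 243 CPM). In HP1a KO Tconv with Treg it stood at 85.7, 67.9 and 75.5 CPM, between the naive and the Tconv values. In HP1g WT it was at 154, 279 and 188 CPM with Treg, overlapping Tconv without Treg, and in HP1g KO at 65.8 and 106 CPM, below every Tconv library. The log2 fold change with Treg was -2.90 in HP1a WT (SE 0.16, adjusted p = 0.000309 by edgeR's quasi-likelihood test) and -1.22 in HP1a KO (SE 0.10, adjusted p = 0.00755). It was -0.53 in HP1g WT (SE 0.22, adjusted p = 0.722) and -1.30 in HP1g KO (SE 0.23, adjusted p = 0.503), neither past the test. DESeq2 and the fit with no filter on low counts called the HP1g KO difference (-1.31 and -1.29). The HP1a KO call was lost without replicate 3 of Tconv with Treg (adjusted p = 0.0861 by edgeR), at a log2 fold change of -1.23.

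The size of this fall differed between genotypes within the HP1a line and, among WT cells, between the lines. In the contrast of WT cells, line cannot be told apart from library set or from the Treg ratio of each experiment. The paper states that WT cells were not well repressed at the ratio used in its HP1g experiment. The interaction of genotype and Treg in the HP1a line was 1.68 on the log2 scale (SE 0.18, adjusted p = 0.0051 by edgeR), that is, Slc2a3 fell by 1.68 less in KO than in WT cells. It was the only member called in that interaction (background 0.139% of 17205 genes), and the call held whichever of the 12 libraries was dropped. Among WT cells the Treg effect in the HP1a line differed from that in the HP1g line by -2.38 (SE 0.28, adjusted p = 0.00377; background 1.56%), again called whichever library was dropped. In the HP1g line the interaction was -0.80 (adjusted p = 1 by edgeR). Neither edgeR nor DESeq2 called a member there (background 0.00% by edgeR and 0.0539% by DESeq2). By edgeR, 2 members had an unadjusted p under 0.05, beside 667 of 17833 genes. Without replicate 3 of HP1a WT Tconv with Treg, Tpi1 was called too, at -1.09 for genotype by Treg in the HP1a line and 1.09 for line by Treg in WT cells.

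**Figure D5:**
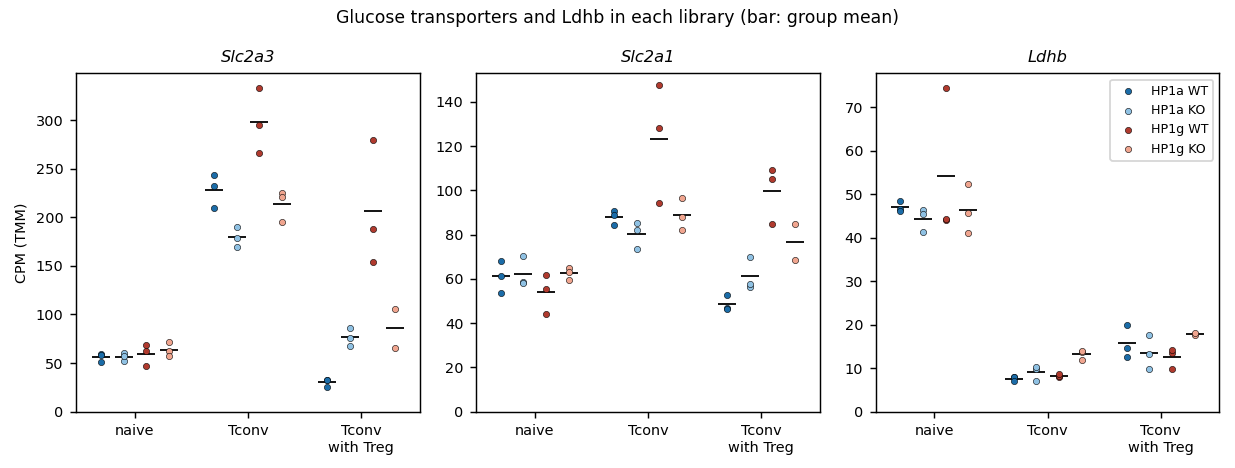
CPM of Slc2a3, Slc2a1 and Ldhb in each library (dots, coloured by line and genotype) in naive cells, Tconv and Tconv with Treg, with a bar for the group mean and axes that start at 0. Slc2a3 lies at 25.7 to 32.9 CPM in HP1a WT Tconv with Treg and at 67.9 to 85.7 CPM in HP1a KO Tconv with Treg.

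Markers of other cells were present in these libraries to differing extents. The summed level of 10 myeloid markers was 5.63, 5.63 and 5.69 CPM in HP1a WT Tconv and 14.1, 14.5 and 47.9 CPM with Treg, but 95.5, 10.4 and 148 CPM in HP1a KO Tconv and 556, 292 and 672 CPM with Treg. In the HP1g line it was 662, 26.8 and 36.7 CPM in WT Tconv and 195, 121 and 165 CPM with Treg, and 170, 32.2 and 110 CPM in KO Tconv and 396 and 92.1 CPM with Treg. In the HP1a line with Treg, the myeloid sum and Slc2a3 were both higher in KO than in WT libraries. Without Treg the sum was also higher in KO, while Slc2a3 was lower in every KO library. The sum was higher with Treg in both HP1a genotypes, where Slc2a3 was lower. In Tconv with Treg, 9 of the 10 myeloid markers averaged at least 1 CPM. The summed level of the erythroid markers also differed by genotype in the HP1a line. It was 2.04 to 3.44 CPM in WT Tconv and 26.6 to 780.1 CPM in KO Tconv. With Treg it was at most 49.96 CPM in WT and 113 to 718 CPM in KO libraries. The part of myeloid or erythroid cells in the Slc2a3 values was not tested.

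Slc2a1 was lower with Treg in HP1a WT, at 52.9, 46.9 and 46.4 CPM against 90.8, 89.1 and 84.6 CPM without overlap. Its log2 fold change of -0.84 passed the adjusted p (0.0113 by edgeR) but not the fold threshold. In the other 3 comparisons it was -0.38 (HP1a KO), -0.31 (HP1g WT) and -0.20 (HP1g KO), none past the test. Ldhb was higher with Treg in HP1a WT, at 12.5, 19.99 and 14.6 CPM against 7.92, 7.86 and 7.06 CPM, a log2 fold change of 1.06 (adjusted p = 0.0396). The call was lost in 5 of the 6 fits without 1 library, those without a Tconv library or without replicate 1 or 2 of Tconv with Treg (adjusted p = 0.0503 to 0.189). Ldhb was at 0.59, 0.59 and 0.45 in HP1a KO, HP1g WT and HP1g KO, none past the test. The other members of lowest adjusted p were Pgd (-0.21) in HP1g WT and Hk2 (-0.76) and Bnip3 (1.06, and 0.42 without replicate 1 of Tconv with Treg) in HP1g KO.

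The ratios within libraries showed where Tconv with Treg differed from Tconv over both genotypes of a line. In the HP1a line Slc2a3/Slc2a1 differed by -1.45 and Ldhb/Ldha by 1.04 on the log2 scale, both without overlap (exact permutation p = 0.005, adjusted p = 0.0129). Pfkfb4/Pfkfb3 (1.11), Eno3/Eno1 (0.61) and Eno2/Eno1 (2.10, at 0.392 to 3.51 CPM of Eno2 over the HP1a libraries with Treg) also passed. In the HP1g line Ldhb/Ldha alone passed (0.64, exact permutation p = 0.025, adjusted p = 0.044), a call lost without replicate 1, 2 or 3 of WT Tconv, without replicate 2 or 3 of KO Tconv, without replicate 1 of WT Tconv with Treg and without replicate 2 of KO Tconv with Treg, and Slc2a3/Slc2a1 differed by -0.70 (exact permutation p = 0.045, adjusted p = 0.0762). Of the 57 other pathway genes tested in HP1a WT, edgeR called 6 lower and none higher (background 2.43% and 3.54%). Among the 6 were Epas1 (-3.91, means 23.6 against 1.55 CPM), Tktl1 (-2.23), and Ero1a (-2.08, 210.4 against 49.3 CPM). In HP1a KO edgeR called Epas1 (-2.79) alone of 58 tested (background 0.260% lower and 0.180% higher). In the HP1g line it called none (background 0.0126% in WT and 0.00% in KO).

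No member was called between KO and WT cells in the same condition. In naive cells, Tconv and Tconv with Treg of both lines, edgeR called 0 of the 36 members in KO against WT (background 0.00%, 0.103% and 0.123% of genes in the HP1a line and 0.00669%, 0.0437% and 0.00% in the HP1g line). At an unadjusted p under 0.05 there were 1, 2 and 4 members in the HP1a line and 1, 4 and 5 in the HP1g line. Of all genes tested, 291 of 15549, 1324 of 15521 and 1975 of 16256 were at that level in the HP1a line. In the HP1g line these were 863 of 14939, 1349 of 16015 and 2028 of 17177. DESeq2 called none in naive cells and Tconv (background 0.0478% and 1.16% in the HP1a line, 0.208% and 1.43% in the HP1g line), 1 in HP1a and 2 in HP1g Tconv with Treg (3.84% and 3.56%). In naive cells the log2 fold changes of all members lay between -0.18 and 0.37 in the HP1a line, where the lowest adjusted p was 1, and between -0.49 and 0.56 in the HP1g line. In naive HP1g cells 9 members shared the lowest adjusted p, 0.63 by edgeR, and those of lowest unadjusted p among them were Pfkfb3 (0.46), Pfkfb4 (0.47) and Tpi1 (-0.36).

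In Tconv without Treg, Slc2a3 was lowest in adjusted p in the HP1a line (-0.35, adjusted p = 0.456 by edgeR), with every KO library below every WT library, followed by Hif1a (-0.31) and Tpi1 (-0.18). The corresponding members in the HP1g line were Ldhb (0.70), Slc2a3 (-0.47) and Slc2a1 (-0.46). With Treg, Slc2a3 was higher in HP1a KO than in WT libraries by 1.31 on the log2 scale (SE 0.17, adjusted p = 0.0522 by edgeR), without overlap and just short of the threshold. DESeq2, RLE size factors, no filter on low counts, a fit of the whole line and the fit without replicate 3 of WT called it (adjusted p = 2e-09 to 0.0483). In the HP1g line the difference between KO and WT was -1.26 (SE 0.33, adjusted p = 0.243), again without overlap, and DESeq2 and the fit of the whole line called it. Tpi1 (-0.99) and Gapdh (-0.40) came next in the HP1a line, and Hk2 (-1.13) and Hif1a (0.56) in the HP1g line. Without replicate 3 of HP1a WT Tconv with Treg, Tpi1 was called lower in HP1a KO (-1.28, adjusted p = 0.0341).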

How the data were processed

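RNA-seq libraries of 12 groups were used, and ATAC-seq was not analysed here. The authors deposited 1 table of estimated counts per gene and library, made with nf-core/rnaseq 3.9 (Trim Galore 0.6.7, Cutadapt 3.4, STAR 2.7.10a, Salmon 1.5.2, GRCm39, Ensembl annotation 107) from SMART-Seq libraries, which do not mark strand, so overlapping genes on opposite strands cannot be separated. Of the values, 82.9% were whole, and they were rounded to whole counts. The third HP1g KO library of Tconv with Treg was set aside, as by the authors, for its GC content, exonic share and 5′ to 3′ bias. Groups came from the labels.

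Each comparison was fitted on its own groups with edgeR 4.0.16 in R 4.3.3 (filterByExpr, TMM, quasi-likelihood test, Benjamini-Hochberg over all genes tested), and tested on simulated data first. Standard errors are the log2 fold change divided by the square root of F. CPM values use TMM factors over the 35 libraries, and levels per kilobase use the canonical transcript. Ratios within libraries used counts plus 0.5. DESeq2 1.42.0, RLE size factors, no filter, no fold threshold, a fit of the whole line, a replicate block and leaving out each library were alternatives, and leaving out the 4 libraries rich in erythroid markers was added after seeing the data.

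The members and gene lists were chosen with earlier results of these data known. Values in every library are given for at most 8 called members per comparison, by fold change at a mean of at least 5 CPM, and the 3 members of lowest adjusted p where none was called. Other pathway genes are named only where called, at most 3 in each direction. A second row that shares the Aldoa symbol was not used. Same-numbered libraries deviated together (correlation above 0.1) in all 3 pairs of HP1a naive KO against WT (0.295 to 0.659). They did so in all 3 pairs of HP1g Tconv KO against WT (0.112 to 0.430). The same held for both pairs available in HP1g Tconv with Treg, KO against WT (0.385 and 0.200). This pairing was seen in the data and not stated in the labels. In each of these comparisons the replicate block called 0 members, as did the fit without it.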

Additional observations from a re-analysis of the deposited data

Results flagged for a closer look

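Slc2a3 differed in its response to Treg between the genotypes of the HP1a line by 1.68 on the log2 scale. It differed between WT cells of the HP1a and HP1g lines by -2.38, where line cannot be told apart from library set or Treg ratio. Both are interaction terms in edgeR's quasi-likelihood test (adjusted p = 0.0051 and 0.00377). Among 252 pairs of effects of members examined without a test, 3 had all KO libraries on one side of all WT libraries in the HP1a line and on the other side in the HP1g line, all in Tconv with Treg. These were Slc2a3 (KO against WT 1.31 in the HP1a line and -1.26 in the HP1g line), Slc2a1 (0.31 and -0.37) and Slc16a1 (0.65 and -0.28). The difference between the lines was not tested for these 3 pairs. Of 12796 genes that averaged 1 CPM or more, 8.38% showed the same opposite separation of KO and WT in Tconv with Treg, a share like that of 3 in 36 members, and over all pairs of effects it was 1.69% of genes and 1.19% of members.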

How the results depend on the processing

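Counts of called members were recomputed under each alternative, and where they moved the cause was not tested unless stated. With no fold threshold, 28, 29 and 21 members passed in Tconv against naive cells of HP1a WT, HP1a KO and HP1g KO, by construction. With Treg, DESeq2 and no filter each called 1 member in HP1g KO. The added fit without the libraries rich in erythroid markers also called 1, but leaves 1 HP1g KO library with Treg, assumed to vary like the Tconv libraries, and so gives no replicate check. Leaving out either library of that group does the same. For KO against WT with Treg, DESeq2, RLE size factors, no filter and the fit of the whole line each called 1 member in the HP1a line, while DESeq2 called 2 and the fit of the whole line 1 in the HP1g line. With the replicate block, 1 member in place of 2 was called in HP1a WT with Treg, where Ldhb was lost (adjusted p = 0.075 by edgeR). The block also left 0 isoform ratios passing in each of the 4 sets, where the few exchanges within pairs allow only coarse p-values. With the left-out library back, 0 ratios passed in HP1g Tconv with Treg, and Hk2 turned to 0.13 in HP1g KO with Treg and to 0.11 in the HP1g interaction.

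Leaving out 1 library gave 13 to 13, 11 to 11, 13 to 14 and 12 to 14 called members in Tconv against naive cells of HP1a WT, HP1a KO, HP1g WT and HP1g KO. It gave 1 to 3, 0 to 1, 0 to 0 and 0 to 0 with Treg, 0 to 2 for HP1a KO against WT with Treg and 0 in the other 5 genotype comparisons. The interactions had 1 to 2 (HP1a), 0 to 0 (HP1g) and 1 to 2 (WT lines), and the ratios 8 to 10, 4 to 5, 9 to 9 and 0 to 1. For 83 single results, 959 alternative fits left 931 with the same direction and side of the threshold, while 14 lost a call, 12 gained one and 2 changed sign. With 2 or 3 libraries a group, small differences of low genes such as Hk2 in naive cells and Eno2 could not be resolved.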
